A study of Homo sapiens with 6 samples.

Results

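The genes described here make cholesterol and fatty acids or set how strongly those pathways are expressed. A list of 32 symbols was matched to the named probe sets of 6 Affymetrix arrays, and the rule used no measured value. The list was, however, chosen with earlier results of these data known. Of the 32, 27 had a named probe set, among 14884 named genes in all. FDFT1, LSS, CYP51A1, SC5D and ACSL3 were not analysed here. HSD17B7, an enzyme of late sterol synthesis, lay below the median of every array at 3.37 to 4.08 log2 units and was not tested, which left 26 genes among the 8620 with a mean log2 signal of at least 5. The arrays held total RNA of ES-2, SKOV-3 and OVCAR-3, which are established human ovarian cancer cell lines. In each line 1 array followed transfection with miR-135a-3p and 1 followed transfection with miR-blank, the control. The dose, the time of harvest, the kind of RNA or vector used and whether separate cultures stood behind the arrays are not stated in the labels, so p-values measure only the spread between these arrays.

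Cells build cholesterol from acetyl-CoA through mevalonate, farnesyl diphosphate, squalene and lanosterol, and they build fatty acids from the same acetyl-CoA through malonyl-CoA. Both routes share a set of transcription factors, the sterol regulatory element binding proteins (SREBPs), which are held at the endoplasmic reticulum when sterols are plentiful and are cut free to enter the nucleus when sterols run low. SREBP-2 acts mainly on sterol genes and SREBP-1 mainly on fatty acid genes, and many of their promoters also carry a CCAAT box bound by the factor NF-Y.

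The transfected microRNA is printed because every array differs from its partner by it; the capitals mark its seed, bases 2 to 8, and the sequence and position are those of RefSeq (GRCh38.p14, chr3:52294232-52294253, minus strand, within the hairpin gene MIR135A1).
hsa-miR-135a-3p: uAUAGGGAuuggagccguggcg
The probe set of MIR135A1 checked the labels. It read 12.57 log2 units with miR-135a-3p and 1.75 with miR-blank in ES-2, 11.58 with miR-135a-3p and 2.07 with miR-blank in SKOV-3, and 12.20 with miR-135a-3p and 2.26 with miR-blank in OVCAR-3. Of 10 listed epithelial markers 9 were named, and their mean log2 signal was 5.90 to 5.91 in ES-2, 5.96 to 6.09 in SKOV-3 and 6.25 to 6.49 in OVCAR-3. KRT18 read 9.36 to 10.47 on all arrays, and EPCAM 3.78 to 4.32, near the array medians of 4.16 to 4.23. Of 6 ovarian and Mullerian markers 5 were named, with means of 4.75 to 4.98 in ES-2, 5.95 to 6.40 in SKOV-3 and 4.75 to 4.89 in OVCAR-3; PAX8 read 8.12 with miR-135a-3p and 8.80 with miR-blank in SKOV-3, and 4.12 to 4.80 in ES-2 and OVCAR-3. The 4 named of 7 listed adipocyte and hepatocyte markers read 3.05 to 4.79.

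Between the lines, most of the pathway stood highest in OVCAR-3. The SREBP genes SREBF1 and SREBF2, the sterol carrier STARD4, the thiolase ACAT2, fatty acid synthase FASN and the desaturases SCD and FADS2 were all lower in both ES-2 and SKOV-3 than in OVCAR-3, by 2.03-fold to 4.78-fold. Calls of these differences rest on a variance pooled across genes, and some were lost when 1 array was left out. With each gene's own variance, 0 of the 24 calls between lines passed. EBP, a sterol isomerase, was lowest in SKOV-3, HMGCS1 was lowest in ES-2 and DHCR7 was highest in ES-2. Both OVCAR-3 arrays lay above all 4 other arrays for 22 of the 26 genes, against 21.3% of all tested genes, and below them for 0, against 19.8%. The 4 exceptions were HMGCS1, NSDHL, DHCR7 and FADS1. With a minimum mean of 6, which leaves out TM7SF2, the count was 21 of 25. Both ES-2 arrays lay above all others for 1 gene, DHCR7, and below for 7, against 16.7% and 21.6% of all tested genes. Both SKOV-3 arrays lay above all others for 1 gene, FADS1, and below for 7, against 18.7% and 13.3%. Some cell type markers moved with the same contrast and others did not. Of 6 mesenchymal markers 5 were named, with a mean log2 signal of 8.88 to 8.97 in ES-2, 6.80 to 7.23 in SKOV-3 and 5.002 to 5.53 in OVCAR-3. Vimentin (VIM) was higher by 5.48 in ES-2 and 4.55 in SKOV-3 than in OVCAR-3. SNAI2 was higher than in OVCAR-3 by 5.95 in ES-2 and 4.70 in SKOV-3, and FN1 by 5.75 in ES-2. In SKOV-3 against OVCAR-3, FN1 was -0.62 and not called, and ZEB1 was not called in any comparison. Among epithelial markers CLDN7 was -4.04 for ES-2 and -4.10 for SKOV-3 against OVCAR-3. OCLN was -3.48 for ES-2 against OVCAR-3 and -2.999 against SKOV-3, and KRT7 was 2.22 for ES-2 against OVCAR-3. OCLN was -0.48 and not called for SKOV-3 against OVCAR-3, and KRT8, KRT18 and CLDN3 were not called in any comparison. SNAI2 and KRT7 lay below 5 log2 units in OVCAR-3. FN1 read 4.75 with miR-135a-3p and 5.04 with miR-blank in SKOV-3. In OVCAR-3 it read 6.63 with miR-135a-3p and 4.41 with miR-blank, so its OVCAR-3 arrays lay far apart. The part of these markers in the pathway differences was not tested. In cultured lines, fewer cells expressing a gene and less RNA per cell cannot be told apart.

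Signals were compared on the log2 scale with limma, with transfection as a block and 2 arrays per line, and a gene was called at an adjusted p under 0.05 and a difference of at least 2-fold. For ES-2 against OVCAR-3, 9 of the 26 genes were called lower and 0 higher, against 7.82% lower and 8.65% higher among all tested genes. For SKOV-3 against OVCAR-3, 12 were called lower and 0 higher, against 5.6% lower and 8.96% higher among all tested genes. For ES-2 against SKOV-3, 2 genes were called higher and 1 lower, against 4.85% higher and 7.29% lower in the background. The median difference of the 26 genes was -0.78 for ES-2 minus OVCAR-3, -0.02 for ES-2 minus SKOV-3 and -0.85 for SKOV-3 minus OVCAR-3. Over all tested genes these medians were -0.04 for ES-2 minus OVCAR-3, -0.04 for ES-2 minus SKOV-3 and 0.005 for SKOV-3 minus OVCAR-3. The difference lay below 0 for 25 of the 26 genes for ES-2 against OVCAR-3, against 53.6% of all tested genes. It lay below 0 for 15 for ES-2 against SKOV-3, where the background was also 53.6%, and for 24 for SKOV-3 against OVCAR-3, against 49.5%. By adjusted p alone, with no fold minimum, 18 genes were lower and 1 higher for ES-2 against OVCAR-3, beside 15.3% and 13.9% of all tested genes. The same rule gave 3 lower and 3 higher for ES-2 against SKOV-3, beside 13.6% and 9.34%, and 16 lower and 1 higher for SKOV-3 against OVCAR-3, beside 11% and 14.6%. The 7 genes called lower in both ES-2 and SKOV-3 stand beside 3.36% of all tested genes, and these comparisons share the OVCAR-3 arrays. In all, 14 genes were called in at least 1 comparison and 12 in none, and the matching share of all tested genes was not counted. Counts given below for parts of the pathway stand beside the shares of all tested genes given here for each comparison.

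**Figure D1:**
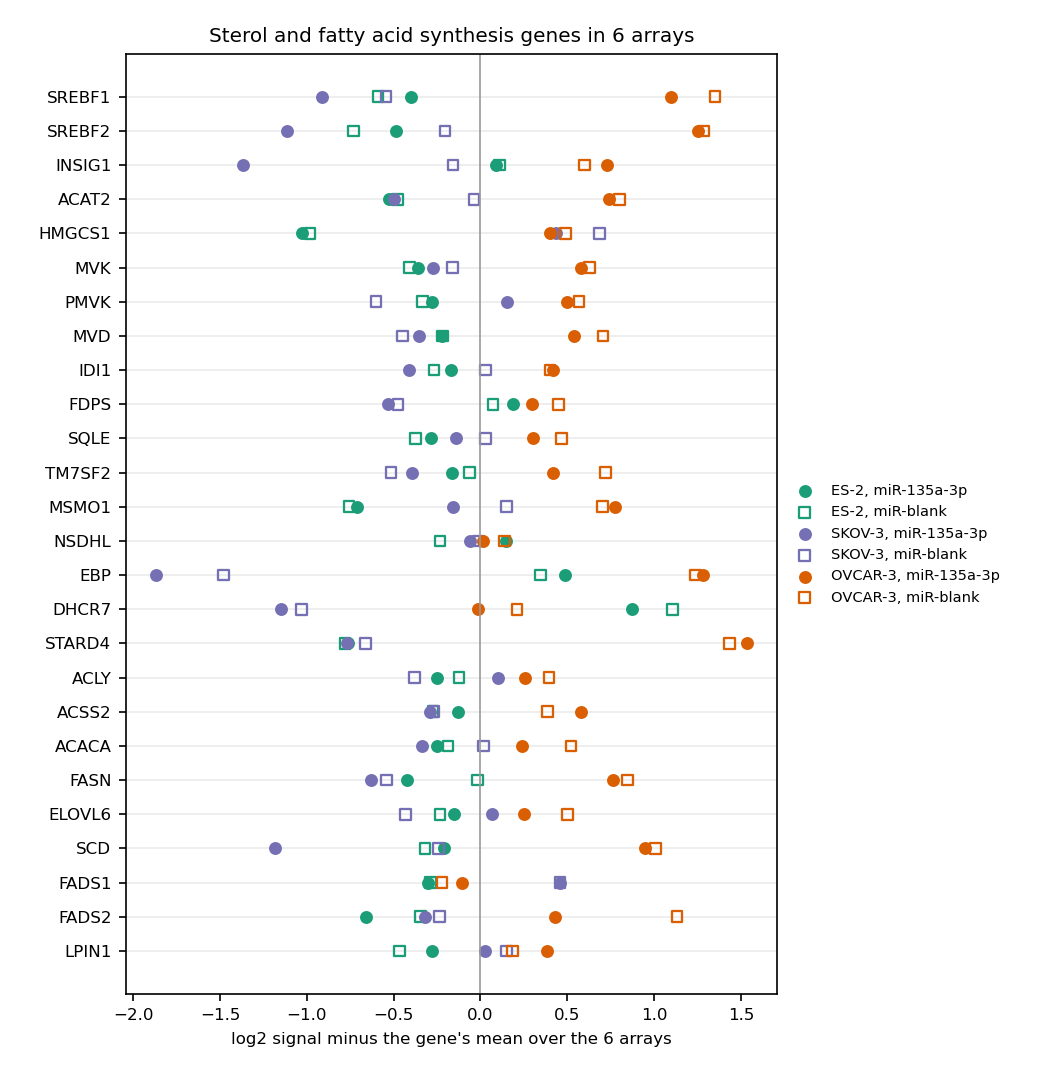
Log2 signal of each tested gene minus that gene's mean over the 6 arrays (horizontal axis), with genes down the page in pathway order and each array drawn as a point coloured by line and marked by transfection. For 22 of the 26 tested genes both OVCAR-3 points lie above the 4 others, with HMGCS1, NSDHL, DHCR7 and FADS1 as the exceptions.

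All 3 genes of SREBP control were called lower in SKOV-3 than in OVCAR-3, and 2 of the 3 were called lower in ES-2. SREBF1 encodes SREBP-1 and read 6.32 with miR-135a-3p and 6.13 with miR-blank in ES-2, 5.81 with miR-135a-3p and 6.17 with miR-blank in SKOV-3, and 7.81 with miR-135a-3p and 8.07 with miR-blank in OVCAR-3. The OVCAR-3 arrays stood clear of the other 4, which lay within a narrow band. The differences were -1.72 ± 0.19 for ES-2 minus OVCAR-3 (SE, adjusted p = 0.00125, 3.29-fold lower in ES-2) and -1.95 ± 0.19 for SKOV-3 minus OVCAR-3 (SE, adjusted p = 0.000985, 3.87-fold lower in SKOV-3). SREBF2 encodes SREBP-2 and read 6.94 with miR-135a-3p and 6.70 with miR-blank in ES-2, 6.32 with miR-135a-3p and 7.23 with miR-blank in SKOV-3, and 8.69 with miR-135a-3p and 8.72 with miR-blank in OVCAR-3. Its OVCAR-3 arrays nearly coincided, while the SKOV-3 arrays were spread as widely as ES-2 and SKOV-3 together. SREBF2 differed by -1.88 ± 0.28 for ES-2 minus OVCAR-3 (SE, adjusted p = 0.00413, 3.67-fold lower in ES-2) and by -1.93 ± 0.28 for SKOV-3 minus OVCAR-3 (SE, adjusted p = 0.00462, 3.80-fold lower in SKOV-3). INSIG1, which holds the SREBPs at the endoplasmic reticulum and is itself an SREBP target, read 7.55 with miR-135a-3p and 7.58 with miR-blank in ES-2, 6.10 with miR-135a-3p and 7.31 with miR-blank in SKOV-3, and 8.19 with miR-135a-3p and 8.06 with miR-blank in OVCAR-3. One SKOV-3 array lay far below the rest and the other lay close to ES-2. INSIG1 differed by -1.43 ± 0.33 for SKOV-3 minus OVCAR-3 (SE, adjusted p = 0.0227, 2.69-fold lower in SKOV-3), while ES-2 minus OVCAR-3 was -0.56 and was not called (adjusted p = 0.253).

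Among the 7 genes from acetyl-CoA to farnesyl diphosphate, 2 were called lower in ES-2 and 2 lower in SKOV-3 than in OVCAR-3, and the median differences were -0.84 and -0.82. ACAT2, the cytosolic thiolase of the first step, read 7.16 with miR-135a-3p and 7.21 with miR-blank in ES-2, 7.18 with miR-135a-3p and 7.65 with miR-blank in SKOV-3, and 8.43 with miR-135a-3p and 8.48 with miR-blank in OVCAR-3. The groups did not overlap between OVCAR-3 and the other lines. ACAT2 differed by -1.27 ± 0.18 for ES-2 minus OVCAR-3 (SE, adjusted p = 0.00331, 2.42-fold lower in ES-2) and by -1.04 ± 0.18 for SKOV-3 minus OVCAR-3 (SE, adjusted p = 0.00841, 2.06-fold lower in SKOV-3). HMGCS1 makes HMG-CoA and read 6.08 with miR-135a-3p and 6.12 with miR-blank in ES-2, 7.54 with miR-135a-3p and 7.79 with miR-blank in SKOV-3, and 7.51 with miR-135a-3p and 7.59 with miR-blank in OVCAR-3. ES-2 was low, and the SKOV-3 and OVCAR-3 arrays overlapped. The differences were -1.45 ± 0.16 for ES-2 minus OVCAR-3 (SE, adjusted p = 0.00121, 2.73-fold lower in ES-2) and -1.56 ± 0.16 for ES-2 minus SKOV-3 (SE, adjusted p = 0.00154, 2.96-fold lower in ES-2), while SKOV-3 minus OVCAR-3 was 0.11 (adjusted p = 0.650). MVD, the decarboxylase that yields isopentenyl diphosphate, read 7.36 with miR-135a-3p and 7.36 with miR-blank in ES-2, 7.23 with miR-135a-3p and 7.13 with miR-blank in SKOV-3, and 8.12 with miR-135a-3p and 8.29 with miR-blank in OVCAR-3. OVCAR-3 was again above the others, narrowly past the fold minimum in one comparison. MVD differed by -1.02 ± 0.17 for SKOV-3 minus OVCAR-3 (SE, adjusted p = 0.00636, 2.03-fold lower in SKOV-3), whereas ES-2 minus OVCAR-3 was -0.84 (adjusted p = 0.0114) and under 2-fold.

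The other members of this stretch were not called between lines. Mevalonate kinase, MVK, read 5.98 with miR-135a-3p and 5.93 with miR-blank in ES-2, 6.07 with miR-135a-3p and 6.18 with miR-blank in SKOV-3, and 6.92 with miR-135a-3p and 6.97 with miR-blank in OVCAR-3. Its differences from OVCAR-3 were -0.99 in ES-2 (adjusted p = 0.00546) and -0.82 in SKOV-3 (adjusted p = 0.0124), both under the fold minimum. PMVK, the next kinase, read 7.21 with miR-135a-3p and 7.16 with miR-blank in ES-2, 7.65 with miR-135a-3p and 6.89 with miR-blank in SKOV-3, and 7.99 with miR-135a-3p and 8.06 with miR-blank in OVCAR-3. The PMVK arrays of SKOV-3 lay on either side of ES-2. PMVK was -0.84 for ES-2 minus OVCAR-3 (adjusted p = 0.0401), under the fold minimum. IDI1, which isomerises isopentenyl diphosphate, read 6.45 with miR-135a-3p and 6.35 with miR-blank in ES-2, 6.20 with miR-135a-3p and 6.64 with miR-blank in SKOV-3, and 7.03 with miR-135a-3p and 7.01 with miR-blank in OVCAR-3. OVCAR-3 was above the others by a small margin. FDPS, farnesyl diphosphate synthase, read 7.19 with miR-135a-3p and 7.08 with miR-blank in ES-2, 6.48 with miR-135a-3p and 6.53 with miR-blank in SKOV-3, and 7.30 with miR-135a-3p and 7.46 with miR-blank in OVCAR-3. SKOV-3 was lowest for FDPS, at -0.88 against OVCAR-3 (adjusted p = 0.0111).

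Along squalene and the late sterol steps, of 6 genes tested, 1 was called lower in ES-2 and 3 in SKOV-3, each against OVCAR-3. EBP, which shifts a double bond in the sterol ring, read 7.89 with miR-135a-3p and 7.75 with miR-blank in ES-2, 5.53 with miR-135a-3p and 5.92 with miR-blank in SKOV-3, and 8.68 with miR-135a-3p and 8.64 with miR-blank in OVCAR-3. SKOV-3 stood at the low end, with ES-2 between it and OVCAR-3 and no overlap. EBP differed by -2.93 ± 0.19 for SKOV-3 minus OVCAR-3 (SE, adjusted p = 0.000196, 7.64-fold lower in SKOV-3) and by 2.09 ± 0.19 for ES-2 minus SKOV-3 (SE, adjusted p = 0.000992, 4.26-fold higher in ES-2), and ES-2 minus OVCAR-3 was -0.84 (adjusted p = 0.0200), under the fold minimum. DHCR7, which reduces 7-dehydrocholesterol to cholesterol, read 10.30 with miR-135a-3p and 10.53 with miR-blank in ES-2, 8.28 with miR-135a-3p and 8.39 with miR-blank in SKOV-3, and 9.41 with miR-135a-3p and 9.63 with miR-blank in OVCAR-3. The order here was ES-2, then OVCAR-3, then SKOV-3, with no overlap between lines. DHCR7 differed by 2.08 ± 0.16 for ES-2 minus SKOV-3 (SE, adjusted p = 0.000473, 4.22-fold higher in ES-2) and by -1.19 ± 0.16 for SKOV-3 minus OVCAR-3 (SE, adjusted p = 0.00306, 2.28-fold lower in SKOV-3), and ES-2 minus OVCAR-3 was 0.89 (adjusted p = 0.00786), under the fold minimum. MSMO1, a sterol methyl oxidase, read 7.92 with miR-135a-3p and 7.88 with miR-blank in ES-2, 8.48 with miR-135a-3p and 8.78 with miR-blank in SKOV-3, and 9.41 with miR-135a-3p and 9.34 with miR-blank in OVCAR-3. Its lines were ordered OVCAR-3, SKOV-3, ES-2 without overlap. MSMO1 differed by -1.47 ± 0.18 for ES-2 minus OVCAR-3 (SE, adjusted p = 0.00161, 2.77-fold lower in ES-2), and the steps between neighbours in that order were under 2-fold, with ES-2 minus SKOV-3 at -0.73 (adjusted p = 0.0303) and SKOV-3 minus OVCAR-3 at -0.74 (adjusted p = 0.0261).

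TM7SF2, a sterol reductase, read 4.89 with miR-135a-3p and 4.99 with miR-blank in ES-2, 4.66 with miR-135a-3p and 4.54 with miR-blank in SKOV-3, and 5.48 with miR-135a-3p and 5.77 with miR-blank in OVCAR-3. OVCAR-3 lay above ES-2 and ES-2 above SKOV-3. TM7SF2 differed by -1.02 ± 0.18 for SKOV-3 minus OVCAR-3 (SE, adjusted p = 0.00803, 2.03-fold lower in SKOV-3). Its ES-2 and SKOV-3 arrays lay below 5, so its mean of 5.06 passed the minimum only through OVCAR-3, the line where it is high. SQLE, squalene epoxidase, read 8.16 with miR-135a-3p and 8.07 with miR-blank in ES-2, 8.30 with miR-135a-3p and 8.47 with miR-blank in SKOV-3, and 8.75 with miR-135a-3p and 8.91 with miR-blank in OVCAR-3. OVCAR-3 was uppermost for SQLE, and no comparison was called. ES-2 minus OVCAR-3 was -0.71 for SQLE (adjusted p = 0.0218), under the fold minimum. NSDHL, a sterol dehydrogenase, read 8.57 with miR-135a-3p and 8.19 with miR-blank in ES-2, 8.36 with miR-135a-3p and 8.41 with miR-blank in SKOV-3, and 8.44 with miR-135a-3p and 8.56 with miR-blank in OVCAR-3. The NSDHL lines overlapped, and the line differences of -0.12 for ES-2 minus OVCAR-3, -0.01 for ES-2 minus SKOV-3 and -0.11 for SKOV-3 minus OVCAR-3 had adjusted p of 0.688, 0.984 and 0.704.

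STARD4 carries cholesterol between membranes and is a known SREBP-2 target. It read 6.51 with miR-135a-3p and 6.49 with miR-blank in ES-2, 6.50 with miR-135a-3p and 6.61 with miR-blank in SKOV-3, and 8.81 with miR-135a-3p and 8.70 with miR-blank in OVCAR-3. ES-2 and SKOV-3 overlapped and OVCAR-3 lay far above both. STARD4 differed by -2.26 ± 0.16 for ES-2 minus OVCAR-3 (SE, adjusted p = 0.000194, 4.78-fold lower in ES-2) and by -2.20 ± 0.16 for SKOV-3 minus OVCAR-3 (SE, adjusted p = 0.000315, 4.60-fold lower in SKOV-3), while ES-2 minus SKOV-3 was -0.06.

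**Figure D2:**
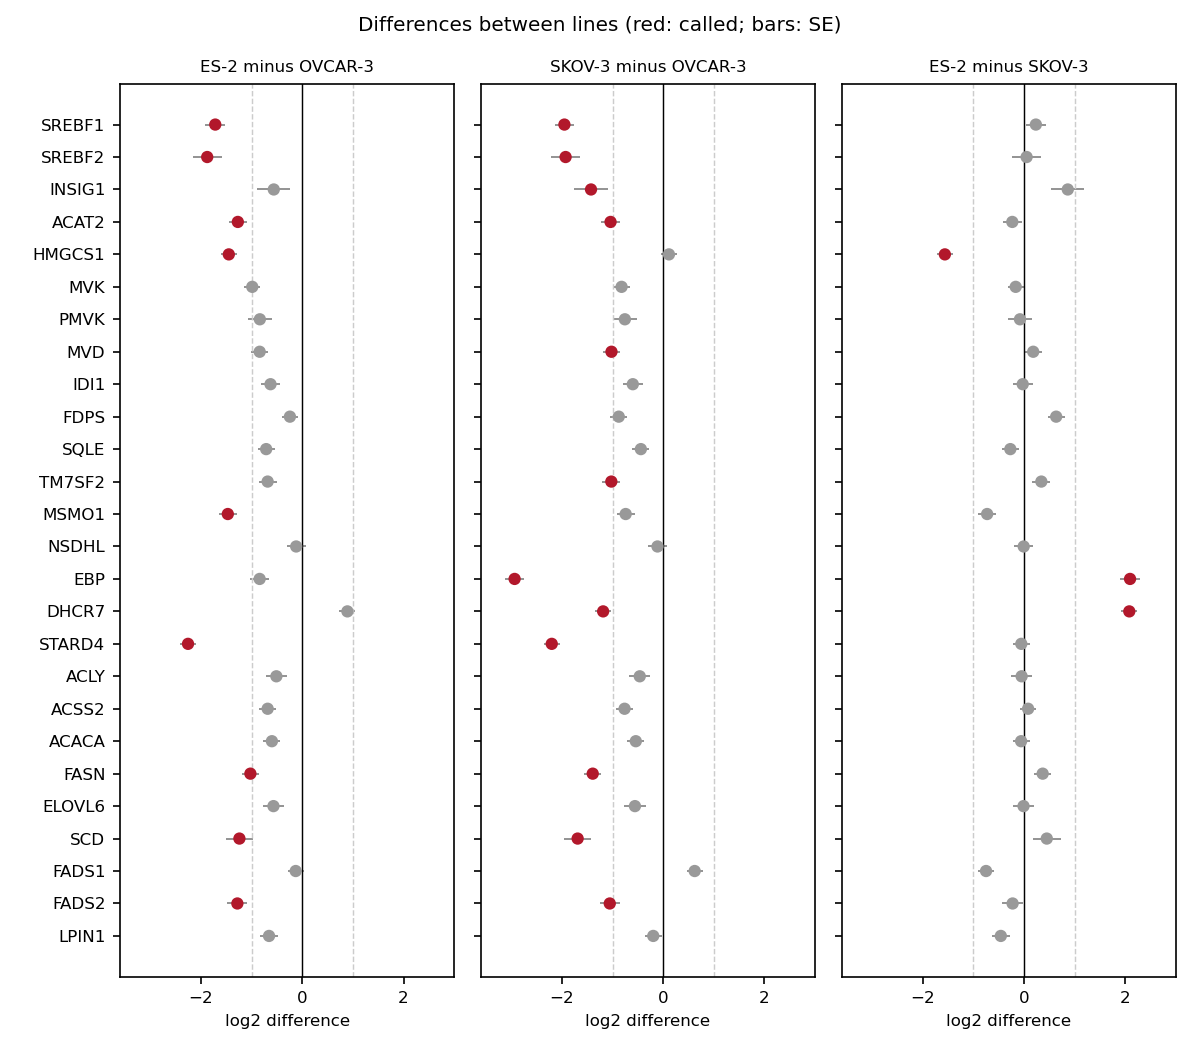
Log2 differences between lines for each tested gene (horizontal axis; bars are standard errors, red points are called, dashed lines mark 2-fold), in panels for ES-2 minus OVCAR-3, SKOV-3 minus OVCAR-3 and ES-2 minus SKOV-3. STARD4 at -2.26 and -2.20 and EBP at -2.93 for SKOV-3 minus OVCAR-3 lie farthest below 0. For ES-2 minus SKOV-3 only EBP, DHCR7 and HMGCS1 are called. INSIG1 at 0.86, FADS1 at -0.75, MSMO1 at -0.73 and FDPS at 0.63 also lie away from 0 there, under 2-fold.

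Of the 8 fatty acid genes, 3 were called lower in ES-2 and 3 lower in SKOV-3 than in OVCAR-3, the same genes in both: FASN, SCD and FADS2. FASN, which assembles palmitate, read 8.14 with miR-135a-3p and 8.54 with miR-blank in ES-2, 7.93 with miR-135a-3p and 8.02 with miR-blank in SKOV-3, and 9.32 with miR-135a-3p and 9.41 with miR-blank in OVCAR-3. OVCAR-3 lay above ES-2, and ES-2 lay above SKOV-3, without overlap. FASN differed by -1.02 ± 0.17 for ES-2 minus OVCAR-3 (SE, adjusted p = 0.00638, 2.03-fold lower in ES-2) and by -1.39 ± 0.17 for SKOV-3 minus OVCAR-3 (SE, adjusted p = 0.00225, 2.62-fold lower in SKOV-3). SCD puts the first double bond into stearate and palmitate, and it read 10.32 with miR-135a-3p and 10.21 with miR-blank in ES-2, 9.35 with miR-135a-3p and 10.29 with miR-blank in SKOV-3, and 11.48 with miR-135a-3p and 11.54 with miR-blank in OVCAR-3. The OVCAR-3 arrays nearly coincided, and the lower ES-2 array lay inside the range of SKOV-3. SCD differed by -1.24 ± 0.27 for ES-2 minus OVCAR-3 (SE, adjusted p = 0.0172, 2.36-fold lower in ES-2) and by -1.69 ± 0.27 for SKOV-3 minus OVCAR-3 (SE, adjusted p = 0.00625, 3.23-fold lower in SKOV-3). FADS2, the first desaturase of polyunsaturated fatty acids, read 5.99 with miR-135a-3p and 6.30 with miR-blank in ES-2, 6.33 with miR-135a-3p and 6.41 with miR-blank in SKOV-3, and 7.08 with miR-135a-3p and 7.78 with miR-blank in OVCAR-3. The OVCAR-3 arrays differed from each other for FADS2 but remained above the rest. FADS2 differed by -1.28 ± 0.20 for ES-2 minus OVCAR-3 (SE, adjusted p = 0.00466, 2.43-fold lower in ES-2) and by -1.06 ± 0.20 for SKOV-3 minus OVCAR-3 (SE, adjusted p = 0.0111, 2.08-fold lower in SKOV-3).

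FADS1, the partner desaturase that lies beside FADS2, read 6.48 with miR-135a-3p and 6.50 with miR-blank in ES-2, 7.24 with miR-135a-3p and 7.24 with miR-blank in SKOV-3, and 6.68 with miR-135a-3p and 6.56 with miR-blank in OVCAR-3. SKOV-3 rather than OVCAR-3 was highest for FADS1, at 0.62 against OVCAR-3 (adjusted p = 0.0327) and with ES-2 minus SKOV-3 at -0.75 (adjusted p = 0.0198), neither past 2-fold. ACLY, which releases acetyl-CoA from citrate, read 10.43 with miR-135a-3p and 10.55 with miR-blank in ES-2, 10.78 with miR-135a-3p and 10.30 with miR-blank in SKOV-3, and 10.93 with miR-135a-3p and 11.07 with miR-blank in OVCAR-3. ACSS2, which makes acetyl-CoA from acetate, read 6.81 with miR-135a-3p and 6.66 with miR-blank in ES-2, 6.64 with miR-135a-3p and 6.67 with miR-blank in SKOV-3, and 7.52 with miR-135a-3p and 7.32 with miR-blank in OVCAR-3. ACACA, the carboxylase that makes malonyl-CoA, read 8.42 with miR-135a-3p and 8.49 with miR-blank in ES-2, 8.34 with miR-135a-3p and 8.69 with miR-blank in SKOV-3, and 8.91 with miR-135a-3p and 9.20 with miR-blank in OVCAR-3. All 3 were uppermost in OVCAR-3 by less than 2-fold and were not called. ACSS2 differed from OVCAR-3 by -0.68 in ES-2 (adjusted p = 0.0231) and -0.76 in SKOV-3 (adjusted p = 0.0174). ACACA was -0.60 for ES-2 minus OVCAR-3 (adjusted p = 0.0397). ELOVL6, which lengthens palmitate, read 7.85 with miR-135a-3p and 7.77 with miR-blank in ES-2, 8.07 with miR-135a-3p and 7.57 with miR-blank in SKOV-3, and 8.25 with miR-135a-3p and 8.51 with miR-blank in OVCAR-3. LPIN1, a phosphatidate phosphatase and SREBP target, read 5.999 with miR-135a-3p and 5.81 with miR-blank in ES-2, 6.30 with miR-135a-3p and 6.43 with miR-blank in SKOV-3, and 6.66 with miR-135a-3p and 6.46 with miR-blank in OVCAR-3. These were also uncalled, with OVCAR-3 narrowly highest. LPIN1 was -0.66 for ES-2 minus OVCAR-3 (adjusted p = 0.0321), under the fold minimum.

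Some of these calls were lost when a single array was left out, which leaves its line with 1 array. A lost call did not always mean a smaller difference. INSIG1 for SKOV-3 minus OVCAR-3 went from -1.43 to -1.80 without the OVCAR-3 miR-blank array, and its call was lost. Leaving out each array in turn kept 4 of the 9 calls for ES-2 against OVCAR-3 in all 6 fits (SREBF1, HMGCS1, MSMO1 and STARD4), all 3 for ES-2 against SKOV-3 (HMGCS1, EBP and DHCR7), and 5 of the 12 for SKOV-3 against OVCAR-3 (SREBF1, EBP, DHCR7, STARD4 and FASN). Without the OVCAR-3 miR-135a-3p array, SREBF2 was -1.72 against OVCAR-3 in ES-2 (adjusted p = 0.0566) and -1.77 in SKOV-3 (adjusted p = 0.0618). The same array's removal ended both calls of SCD (adjusted p = 0.155 for ES-2 and 0.0786 for SKOV-3), and the OVCAR-3 miR-blank array's removal ended both calls of FADS2 (adjusted p = 0.0622 for ES-2 and 0.125 for SKOV-3). Without the SKOV-3 miR-135a-3p array, INSIG1 was -0.80 and ACAT2 was -0.83 for SKOV-3 minus OVCAR-3, and without the SKOV-3 miR-blank array MVD was -0.93, TM7SF2 -0.86 and FADS2 -0.84. Without the ES-2 miR-135a-3p array FASN was -0.86, and without the ES-2 miR-blank array SCD was -0.94, both for ES-2 minus OVCAR-3. With each gene's own variance in place of limma's pooled one, 0 of the 24 calls passed (adjusted p 0.0656 to 0.273).

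**Figure D3:**
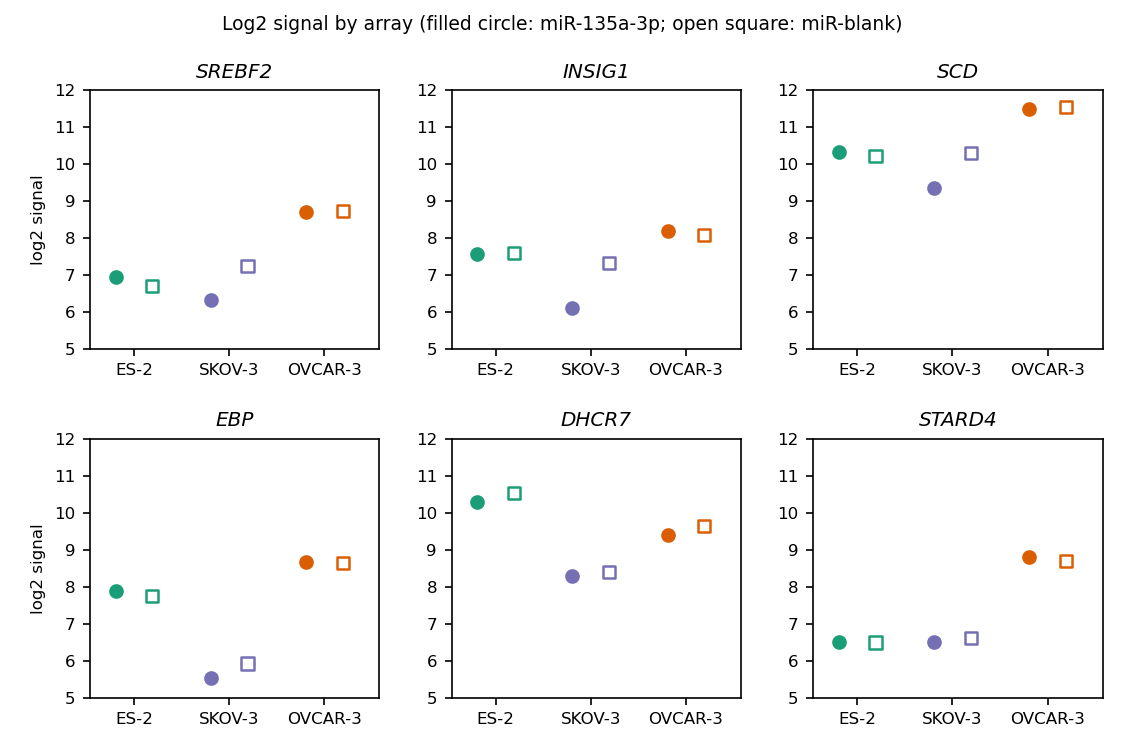
Log2 signal of SREBF2, INSIG1, SCD, EBP, DHCR7 and STARD4 (vertical axis) on each array, by line and transfection, with 1 point per array. STARD4 and SREBF2 stand high in OVCAR-3, EBP stands low in SKOV-3, DHCR7 stands high in ES-2, and INSIG1 and SCD show the distance between the SKOV-3 arrays.

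Promoter windows of 250 bases before to 50 after the gene start were taken from RefSeq (GRCh38.p14), where 28 of the 32 genes had one; ACAT2, FDFT1, SQLE and FASN did not. Windows were searched on both strands for TCACNCCAC, one form of the sterol regulatory element, and for CCAAT, the NF-Y box; in the stretches shown their letters do not overlap. CCAAT was present for 22 of the 28 genes (78.6%), for 39.7% of all 27305 genes with a window and for 42.6% of the 6857 tested genes with one. TCACNCCAC was present for 1 of the 28 (3.57%) and for 1.39% of all genes. Stretches of 4 genes are shown, chosen after their values were seen. SREBF2 is the 1 gene with both motifs. STARD4, INSIG1 and SCD stand as examples of the CCAAT genes, STARD4 for its difference of -2.26 between ES-2 and OVCAR-3 and INSIG1 and SCD for their distance between the SKOV-3 arrays. Capitals mark the motif letters, and ATTGG is CCAAT read from the other strand.
SREBF2, chr22:41832952-41833023, plus strand: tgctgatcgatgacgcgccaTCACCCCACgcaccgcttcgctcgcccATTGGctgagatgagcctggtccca
STARD4, chr5:111512641-111512685, minus strand: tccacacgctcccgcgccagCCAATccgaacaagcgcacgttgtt
INSIG1, chr7:155297688-155297732, plus strand: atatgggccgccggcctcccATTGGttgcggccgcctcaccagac
SCD, chr10:100347027-100347071, plus strand: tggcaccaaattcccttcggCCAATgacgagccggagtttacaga
The SREBF2 stretch holds both motifs, TCACNCCAC starting 133 bases before the gene start and CCAAT at 106. A match is a description of the letters and not a bound site.

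Other genes of sterol and fatty acid handling were listed beside the set. Of 57 such genes 36 were named and 32 tested, and both OVCAR-3 arrays lay above all others for 8 of the 32, against the 21.3% of all tested genes. For ES-2 against OVCAR-3, 4 were called higher and 3 lower, beside 8.65% and 7.82% of all tested genes. Calls for ES-2 against SKOV-3 were 3 higher and 5 lower, beside 4.85% and 7.29%. Those for SKOV-3 against OVCAR-3 were 3 higher and 1 lower, beside 8.96% and 5.6%. Their median differences were 0.02 for ES-2 minus OVCAR-3, -0.23 for ES-2 minus SKOV-3 and 0.10 for SKOV-3 minus OVCAR-3. CPT1A, which admits fatty acids to mitochondria for oxidation, read 5.51 with miR-135a-3p and 5.76 with miR-blank in ES-2, 9.73 with miR-135a-3p and 9.69 with miR-blank in SKOV-3, and 10.23 with miR-135a-3p and 10.35 with miR-blank in OVCAR-3. CPT1A was low in ES-2 and high in both other lines, with ES-2 at -4.65 against OVCAR-3 and -4.07 against SKOV-3. PPARG, a nuclear receptor of lipid storage, was higher in ES-2 by 2.49 and in SKOV-3 by 3.23 than in OVCAR-3. In OVCAR-3 it read 3.40 with miR-135a-3p and 3.41 with miR-blank, below the medians of those arrays. PPARG thus passed the minimum of 5 only through the lines where it is high. STARD3, a late endosomal sterol carrier, was called higher in SKOV-3 than in OVCAR-3 by 1.88, and ES-2 minus SKOV-3 was -1.90. Other fatty acid and glycerolipid genes were called in both directions. They included ELOVL2 (2.12 for ES-2 minus OVCAR-3 and 2.30 for SKOV-3 minus OVCAR-3), ACSL4 (1.18 for ES-2 minus OVCAR-3), LPIN2 (1.90 for ES-2 minus OVCAR-3 and 1.24 for ES-2 minus SKOV-3) and, in the lower direction, ACACB (-1.16 for ES-2 minus OVCAR-3). ELOVL7 was lower in ES-2, at -1.23 against OVCAR-3 and -1.9998 against SKOV-3, as were FADS3 (-1.23) and ACSL1 (-1.08) against SKOV-3. MID1IP1 was 1.04 for ES-2 minus SKOV-3 and -1.65 for SKOV-3 minus OVCAR-3, and DGAT2 was 1.32 for ES-2 minus SKOV-3. As with PPARG, some of these genes passed the minimum of 5 only through their higher lines. They were ELOVL2 (mean 4.52 in OVCAR-3), ELOVL7 (4.35 in ES-2) and ACACB (4.59 in ES-2).

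No gene of the set was called between miR-135a-3p and miR-blank across the 3 lines. With the lines as replicates, limma called 0 of the 26 at an adjusted p under 0.05, and 0 had an unadjusted p under 0.05. Over all tested genes 1 was called (0.0116%), MIR135A1 itself, with a mean difference of 10.09 (adjusted p = 4.83e-05). The median of the 26 mean differences, miR-135a-3p minus miR-blank, was -0.08, and that of all tested genes was -0.01. Lower signals in all 3 lines were found for 6 genes, ACAT2, HMGCS1, DHCR7, ACACA, FASN and FADS2, and higher signals in all 3 for 0, against 13.4% and 9.54% of all tested genes. Agreement in 2 lines is a weaker demand: 13 genes were lower in both lines without ES-2, 9 without SKOV-3 and 8 without OVCAR-3, against 25.8%, 32.4% and 23.1% of all tested genes.

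The largest distances between transfections among the 26 genes lay in SKOV-3, where 1 array stands for each. INSIG1 was 2.31-fold lower with miR-135a-3p than with miR-blank there, SCD 1.92-fold lower and SREBF2 1.88-fold lower, while PMVK was 1.69-fold higher. These were the tested genes past 1.5-fold in SKOV-3, 3 lower and 1 higher of 26, against 7.03% lower and 8.35% higher among all tested genes. In SKOV-3, 21 of the 26 were below 0, against 47.8% of all tested genes, and 19 to 21 were below 0 under the other scalings of the arrays. The median difference there was -0.11 for the 26 and 0.02 for all tested genes. The SKOV-3 differences were the most widely spread of any line, with an SD of 0.48 over all tested genes against 0.30 in ES-2 and 0.30 in OVCAR-3. HSD17B7, untested and below the array median, was 1.64-fold lower with miR-135a-3p in SKOV-3. Of 5 listed leukocyte markers 2 were named. CD68 read 10.15 with miR-135a-3p and 10.40 with miR-blank in ES-2, and 7.29 with miR-135a-3p and 7.68 with miR-blank in OVCAR-3. On the SKOV-3 arrays, CD68 read 10.20 with miR-135a-3p and 7.96 with miR-blank, and TYROBP read 5.87 with miR-135a-3p and 5.17 with miR-blank. Differences of other markers there, miR-135a-3p minus miR-blank, were 2.10 for SNAI2 and -0.68 for TWIST1 among mesenchymal markers. Mullerian markers differed by 1.41 for MSLN, 1.005 for WT1 and -0.68 for PAX8. Epithelial markers differed by 0.62 for KRT8, 0.59 for KRT18, -1.53 for KRT7 and -1.02 for CLDN4. CLDN4 and TWIST1 had means below the minimum and were not tested. Past 1.5-fold in SKOV-3 were 2 epithelial markers higher and 2 lower, 2 Mullerian higher and 1 lower, and 1 mesenchymal higher and 1 lower. Markers also passed 1.5-fold in the other lines. In OVCAR-3 they were FN1 at 2.22, KRT7 at 1.03 and KRT8 at 0.72, and in ES-2 KRT8 at -0.80 and PAX8 at 0.63. FN1 and KRT7 read below 5 with miR-blank in OVCAR-3, and PAX8 read below 5 on both ES-2 arrays. The part of these markers in the differences was not tested.

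The same genes lay closer to 0 in ES-2 and OVCAR-3, and with 1 array per line and transfection the difference between lines was not tested. The 95% intervals here and below come from limma's variance pooled across genes, and not from the SD of the 3 lines printed beside them. SREBF2 differed by 0.24 in ES-2, -0.91 in SKOV-3 and -0.03 in OVCAR-3, with a mean of -0.23 ± 0.60 (SD, n = 3 lines; 95% interval -0.79 to 0.33; limma adjusted p = 0.999). INSIG1 differed by -0.02 in ES-2, -1.21 in SKOV-3 and 0.13 in OVCAR-3, with a mean of -0.37 ± 0.73 (SD, n = 3 lines; 95% interval -1.01 to 0.28; limma adjusted p = 0.999). SCD differed by 0.11 in ES-2, -0.94 in SKOV-3 and -0.06 in OVCAR-3, with a mean of -0.30 ± 0.56 (SD, n = 3 lines; 95% interval -0.83 to 0.24; limma adjusted p = 0.999). Without SKOV-3 these means changed sign, to 0.11 for SREBF2, 0.05 for INSIG1 and 0.02 for SCD. A second SCD probe set gave 0.10 in ES-2, -0.86 in SKOV-3 and -0.07 in OVCAR-3. PMVK differed by 0.05 in ES-2, 0.75 in SKOV-3 and -0.07 in OVCAR-3, with a mean of 0.25 ± 0.44 (SD, n = 3 lines; 95% interval -0.22 to 0.71; limma adjusted p = 0.999). SREBF1 followed SREBF2 in sign, at 0.19 in ES-2, -0.37 in SKOV-3 and -0.25 in OVCAR-3.

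Along the sterol route, ACAT2, IDI1, EBP and MSMO1 were lower with miR-135a-3p than with miR-blank in SKOV-3 by less than 1.5-fold. ACAT2 differed by -0.05 in ES-2, -0.46 in SKOV-3 and -0.06 in OVCAR-3. IDI1 differed by 0.10 in ES-2, -0.44 in SKOV-3 and 0.02 in OVCAR-3. EBP differed by 0.14 in ES-2, -0.39 in SKOV-3 and 0.04 in OVCAR-3. The ES-2 and OVCAR-3 values of these 3 genes stayed within 0.14 of 0. MSMO1 differed by 0.05 in ES-2, -0.31 in SKOV-3 and 0.07 in OVCAR-3. DHCR7 was the most even, at -0.23 in ES-2, -0.12 in SKOV-3 and -0.22 in OVCAR-3, with a mean of -0.19 ± 0.06 (SD, n = 3 lines; 95% interval -0.50 to 0.12; limma adjusted p = 0.999). NSDHL had the highest value in ES-2, at 0.38 in ES-2, -0.05 in SKOV-3 and -0.12 in OVCAR-3. For FDPS the probe sets disagreed, the one kept at 0.11 in ES-2, -0.06 in SKOV-3 and -0.15 in OVCAR-3, whereas a second one gave -0.21 in ES-2, 0.15 in SKOV-3 and -0.22 in OVCAR-3.

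On the fatty acid side, FADS2 was 1.63-fold lower with miR-135a-3p than with miR-blank in OVCAR-3, the 1 gene past 1.5-fold lower in that line, where 2.25% of all tested genes were past 1.5-fold lower; 0 were past 1.5-fold higher, against 1.67%. FADS2 differed by -0.31 in ES-2, -0.08 in SKOV-3 and -0.70 in OVCAR-3, with a mean of -0.37 ± 0.31 (SD, n = 3 lines; 95% interval -0.76 to 0.03; limma adjusted p = 0.999). It had the smallest unadjusted p of the set for transfection, 0.063. ACACA differed by -0.07 in ES-2, -0.36 in SKOV-3 and -0.28 in OVCAR-3, with a mean of -0.24 ± 0.15 (SD, n = 3 lines; 95% interval -0.56 to 0.09; limma adjusted p = 0.999). FASN differed by -0.41 in ES-2, -0.09 in SKOV-3 and -0.08 in OVCAR-3, its lower value in ES-2 being the lowest of the set in that line. ACLY and ELOVL6 went the other way in SKOV-3, ACLY at -0.12 in ES-2, 0.48 in SKOV-3 and -0.14 in OVCAR-3. ELOVL6 was at 0.08 in ES-2, 0.50 in SKOV-3 and -0.25 in OVCAR-3. In ES-2, 0 of the 26 were past 1.5-fold in either direction, against 2.17% lower and 1.29% higher among all tested genes, and 11 lay below 0, against 51.1%. In OVCAR-3 18 lay below 0, against 59.4% of all tested genes. Other scalings put 7 to 12 below 0 in ES-2 and 14 to 19 in OVCAR-3.

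**Figure D4:**
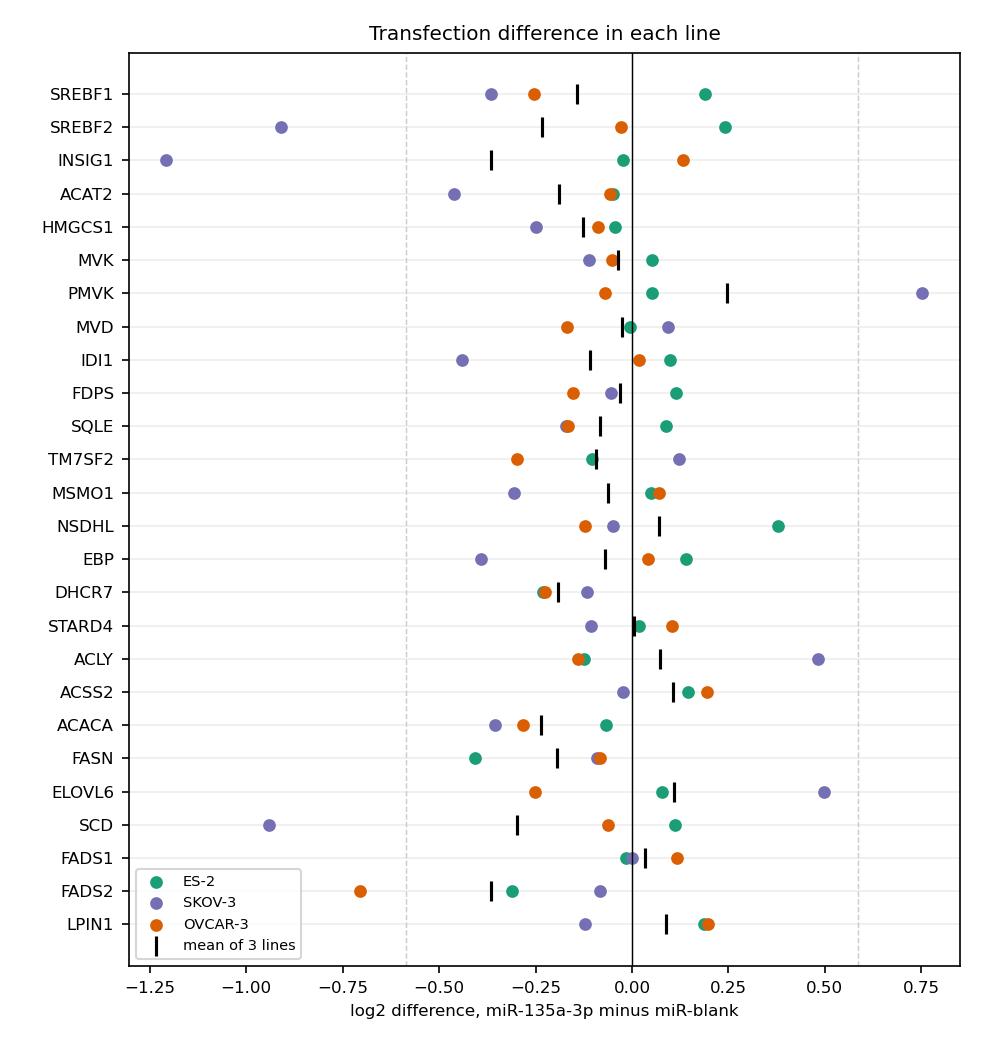
Log2 difference of miR-135a-3p minus miR-blank (horizontal axis) for each tested gene, with 1 point per line, a tick at the mean of the 3 lines and dashed lines at 1.5-fold. The SKOV-3 points spread from -1.21 for INSIG1 to 0.75 for PMVK, while the ES-2 points lie between -0.41 and 0.38 and the OVCAR-3 points between -0.70 for FADS2 and 0.20.

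Other listed genes gave 0 calls for transfection and 1 with an unadjusted p under 0.05. In SKOV-3, 2 of the 32 were past 1.5-fold higher with miR-135a-3p than with miR-blank and 5 past 1.5-fold lower, beside 8.35% and 7.03% of all tested genes. The higher were TMEM97, a sterol-regulated membrane protein, at 0.69, and ACSL1, a fatty acyl-CoA ligase, at 0.61. MYLIP, which marks lipoprotein receptors for degradation, was at -1.14, MID1IP1, an activator of acetyl-CoA carboxylase, at -1.02, PPARG at -1.004, ELOVL7 at -0.80 and FADS3 at -0.66. ACSL5, another fatty acyl-CoA ligase, had a mean below the minimum and was not tested. It read 4.06 with miR-135a-3p and 6.49 with miR-blank in ES-2, 3.57 with miR-135a-3p and 3.72 with miR-blank in SKOV-3, and 2.61 with miR-135a-3p and 2.40 with miR-blank in OVCAR-3. The ES-2 miR-blank array stood apart, and the difference in ES-2 was -2.43, the largest in size among the listed lipid genes named in any line.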

How the data were processed

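Arrays were grouped by the labelled cell line and transfection. The authors deposited log2 signals of 53617 probe sets; per the submitters' processing notes, the tools were RMA, Expression Console 1.4 from Affymetrix and version 3.0 of the Transcriptome Analysis Console, with no roles given. RMA makes array distributions alike, so a shift of most genes one way would be removed. No detection calls were used, and precision is limited by having 6 arrays. Probe sets were named from the platform annotation: 16098 had 1 symbol, 0 several, and 37519 were unnamed here; all 16098 matched RefSeq (GRCh38.p14) by Entrez ID. The probe set with the highest mean stood for a gene, and means of at least 5 were tested.

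Tests used limma 3.58.1 (lmFit, eBayes, two-sided, Benjamini-Hochberg over all tested genes) in R 4.3.3. Transfection was fitted with the cell line as a block, because both arrays of a line come from the same cell line; their deviations from the group means correlated at 0.904 in ES-2, 0.759 in SKOV-3 and 0.91 in OVCAR-3. Lines were compared with transfection as a block. The 95% intervals of transfection differences use limma's pooled variance. Within a line, differences are descriptions. The fits were tested on simulated data. Every listed gene with a probe set is named; other listed genes are named where called between lines or past 1.5-fold in a line. The genes and lists were chosen with earlier results of these data known. Alternatives were other scalings, filters, probe set summaries, variance models, fold minimums and left-out arrays.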

Additional observations from a re-analysis of the deposited data

How the results depend on the processing

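Line calls depended most on pooling the variance across genes and on the fold minimum. Without variance moderation, genes called were 0 for ES-2 against OVCAR-3, 4 for ES-2 against SKOV-3 and 0 for SKOV-3 against OVCAR-3; 0 of the 24 calls of pathway genes passed (adjusted p 0.0656 to 0.273), although 16, 6 and 16 pathway genes had an unadjusted p under 0.05. Without a fold minimum, 2515, 1979 and 2210 genes were called in those comparisons, with 18 pathway genes lower and 1 higher, 3 lower and 3 higher, and 16 lower and 1 higher. Leaving out 1 array at a time gave 1044 to 1440, 937 to 1281 and 808 to 1409 genes; 5 to 9 pathway genes were lower for ES-2 against OVCAR-3, 2 to 3 higher for ES-2 against SKOV-3, and 6 to 12 lower for SKOV-3 against OVCAR-3, lowest without the OVCAR-3 miR-135a-3p array (5 and 6) and 7 in the last comparison without the OVCAR-3 miR-blank array. Other scalings, filters and summaries gave 8 to 9 genes lower for ES-2 and 10 to 12 lower for SKOV-3 against OVCAR-3. For transfection, no variance moderation gave 0 genes called and 1 pathway gene with an unadjusted p under 0.05; leaving out 1 line at a time gave 1 to 4 genes called (4 without SKOV-3), 8 to 13 pathway genes lower in both remaining lines, a weaker demand, and 0 to 6 higher. With equal array medians 1 was higher in all lines, and with quantile normalization 1. Without the cell line as the replicate block 1 gene and 0 pathway genes were called, so the block changed no call. At a 2-fold minimum within a line, SKOV-3 had 0 higher and 1 lower, and OVCAR-3 had 0 lower. The cause of each change was not tested.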
